A study of Mus musculus with 12 samples.

Results

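Isolated islets of C57BL/6J mice that had received cytokines and ML351 together (called the combination) were compared with islets that had received vehicle, 6 of the 12 RNA-sequencing libraries of the series. The libraries were chosen by the treatment named in their labels and not by any measured value. Vehicle is represented by replicates 1, 2 and 4, and the combination by replicates 1, 2 and 4. The combination islets were exposed for 24 hours to 10 µM ML351 with 100 ng/ml interferon-γ, 10 ng/ml tumour necrosis factor α and 5 ng/ml interleukin-1β. The remaining libraries are 3 with ML351 alone and 3 with cytokines alone, at the same doses and time, and they enter only where named. ML351 inhibits 12/15-lipoxygenase, which adds oxygen to polyunsaturated fatty acids, and the series concerns that enzyme in β-cell oxidative stress in type 1 diabetes. The comparison with vehicle gives the net state of inflamed, inhibitor-treated islets and does not separate what each agent contributed.

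Islets are clusters of endocrine cells: β cells make insulin, α cells glucagon, δ cells somatostatin and PP cells pancreatic polypeptide. Interleukin-1β and tumour necrosis factor α signal to the transcription factor NF-κB, while interferon-γ signals through JAK kinases to STAT factors, which bind sites named GAS and induce interferon regulatory factors that bind sites named ISRE. This mixture of cytokines is a standard model of the inflamed islet, in which nitric oxide is produced and β cells lose function.

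The 6 libraries held 20208286 to 23519151 counts. Counting error weighs more the fewer counts a gene has, and its part in the spread between libraries was not measured gene by gene. The values are CPM, which scale the counts to a common library total after TMM scaling, and fold changes are log2 values from edgeR with their standard errors (SE). The libraries carried the defining markers of islets: Ins2 stood at 226000 to 262000 CPM in the vehicle libraries and Gcg at 33900 to 37900. The summed level of markers of exocrine acinar cells was 263 to 791 CPM with vehicle and 1160 to 1700 with the combination, compared with 213 to 409 in the ML351 libraries and 54.5 to 991 in the cytokine libraries. Whether replicate libraries stem from different mice or dishes is not stated in the labels, and the p-values therefore reflect spread among these libraries that could be technical. In whole islets, fewer cells of a type and less RNA per cell cannot be told apart.

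Most of the measured transcriptome differed between the combination and vehicle. Of 14089 genes, 10209 (72.5%) passed an edgeR adjusted p of 0.05, with 5106 higher (36.2%) and 5103 lower (36.2%). TMM scaling places the typical gene near no change. The even division is therefore partly set by the scaling, and a shift shared by all genes would not be seen. The change was larger than 2-fold by edgeR's test against that size for 1457 higher genes (10.3%) and 1559 lower genes (11.1%). In 10677 genes (75.8%) the 3 combination libraries did not overlap the 3 vehicle libraries. The median size of the change was 0.67 on the log2 scale, with a middle range of 0.3 to 1.26 and a median SE of 0.12. The changes were not symmetric at the far ends: 335 genes were called higher with an estimate over 16-fold, against 173 called lower by as much. For 2790 genes (19.8%) the 95% interval of the change lay within 0.5 log2 of no change, and 956 of these were also called. Because 72.5% of all genes were called, the counts of gene lists below are read against that share.

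**Figure D1:**
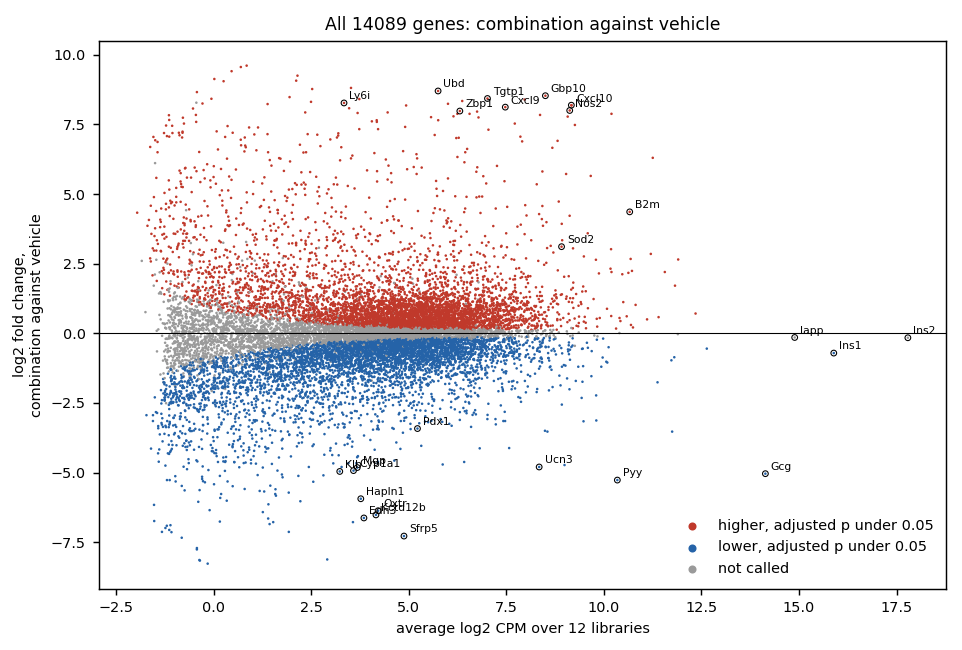
Log2 fold change of the combination against vehicle (vertical) by average log2 CPM over 12 libraries (horizontal), with each point 1 of 14089 genes; red points were called higher, blue points lower and grey points not called at an edgeR adjusted p of 0.05. Ins2 and Iapp, at the right, lie near no change, while Gbp10 (8.53) and Sfrp5 (-7.28) lie near the ends.

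The largest rises were of interferon-inducible genes, chemokines and inducible nitric oxide synthase. Ubd (chromosome 17, 37193892 to 37196095, GRCm38), which encodes a ubiquitin-like modifier, measured 0.255, 0.327 and 0.276 CPM in vehicle replicates 1, 2 and 4 and 115, 146 and 99.9 CPM in combination replicates 1, 2 and 4. Every combination library stood far above every vehicle library (log2 fold change 8.70, SE 0.23, edgeR adjusted p = 6.6e-13). Gbp10, a guanylate-binding protein, went from 2.5, 1.68 and 1.75 CPM to 710, 667 and 834 CPM (8.53, SE 0.13, adjusted p = 4.1e-18). Nos2 (chromosome 11, 78920787 to 78960254), which makes nitric oxide from arginine, went from 4.97, 3.5 and 3.18 CPM to 957, 946 and 1090 CPM (8.0, SE 0.13, adjusted p = 3.7e-17). The groups were far apart for each of these genes. Cxcl10 (chromosome 5, 92346638 to 92348889), a chemokine that attracts T cells, went from 4.92, 3.13 and 3.96 CPM to 1330, 1250 and 949 CPM (8.19, SE 0.22, adjusted p = 1.2e-10). Its relatives Cxcl11 (8.18) and Cxcl9 (8.12), which bind the same receptor, rose as much. The other genes with the largest rises were Tgtp1 (8.43), Iigp1 (8.39), Ly6i (8.27), Tgtp2 (8.24), Gbp4 (8.18) and Zbp1 (7.98). Tgtp1 and Tgtp2 are near-identical copies, so the division of reads between them is uncertain, and the same holds in part for the Gbp genes. For Ly6i only 4 counts were found over the 3 vehicle libraries, or 0.295% of the level with the combination (95% Poisson interval, for counting error alone, 0.0803% to 0.755%).

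**Figure D2:**
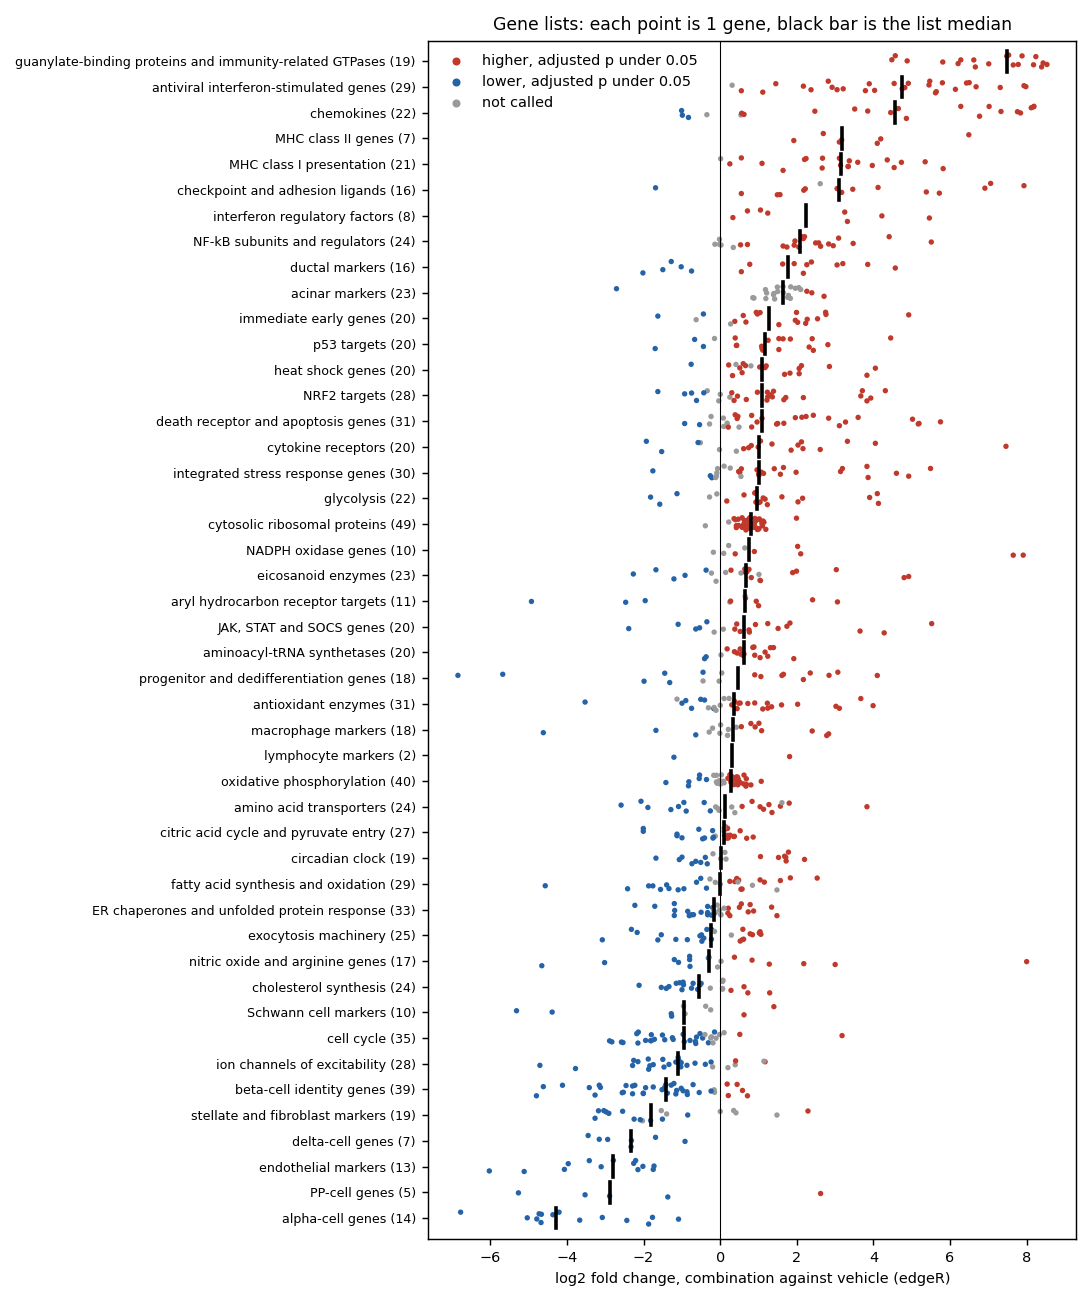
Log2 fold change of the combination against vehicle for the tested members of 46 gene lists (list sizes in brackets), with each point 1 gene, the black bar the list's median and the colour the edgeR call. Lists of interferon-inducible genes lie at the top, with guanylate-binding proteins and immunity-related GTPases at a median of 7.48, and α-cell genes at the bottom with -4.29.

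Short promoter stretches of genes that rose are shown because a few of them carry the same arrangement of motifs near their start. Of the 12 largest rises 5 had a promoter entry, and 2 of these, the related Tgtp1 and Tgtp2, carried that arrangement. Windows ran from 250 bases before to 50 after each start in RefSeq (GRCm38.p6), and 10692 of the tested genes had an entry. The patterns searched on both strands were GAAANNGAAA for ISRE, TTCNNNGAA for GAS, GGGNNTTTCC for NF-κB and TGATGNAA for an ATF4 element. The stretches shown were picked because they hold matches. The windows of some other genes that rose, such as Cxcl9, Cd274, Ddit3 and Alox12, held no match of any of these patterns. Matches may overlap one another, and those discussed are in capitals, with 20 bases on either side:
Igtp, chr11:58199491-58199551, plus strand: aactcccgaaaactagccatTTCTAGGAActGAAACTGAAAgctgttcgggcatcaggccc
Irgm2, chr11:58214882-58214942, plus strand: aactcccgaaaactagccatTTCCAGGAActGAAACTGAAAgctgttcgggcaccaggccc
Tgtp1, chr11:48992294-48992354, minus strand: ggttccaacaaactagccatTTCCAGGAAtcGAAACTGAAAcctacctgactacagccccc
Tgtp2, chr11:49064253-49064313, minus strand: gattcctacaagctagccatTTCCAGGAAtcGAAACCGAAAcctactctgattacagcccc
Gbp2, chr3:142620584-142620633, plus strand: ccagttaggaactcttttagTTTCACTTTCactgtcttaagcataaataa
Irf1, chr11:53769904-53769952, plus strand: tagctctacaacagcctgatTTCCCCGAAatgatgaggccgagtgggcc
B2m, chr2:122147528-122147590, plus strand: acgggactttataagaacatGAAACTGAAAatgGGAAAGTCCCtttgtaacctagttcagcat
Il6, chr5:30013050-30013099, plus strand: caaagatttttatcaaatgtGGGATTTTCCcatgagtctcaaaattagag
Slc7a11, chr3:50443633-50443699, minus strand: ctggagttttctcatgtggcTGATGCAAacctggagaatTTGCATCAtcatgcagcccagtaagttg

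In Igtp, Irgm2, Tgtp1 and Tgtp2, genes of immunity-related GTPases on chromosome 11, a GAS match was followed after 2 bases by an ISRE match. Among all 32851 promoter entries 5 (0.0152%) held that pair, and among the tested genes the fifth was Gm12185, an unnamed gene model named here after its value was seen (log2 fold change 7.03, edgeR adjusted p = 5e-11). These genes are related copies, so they are not independent examples. B2m, the light chain of MHC class I, held an ISRE and an NF-κB match close together. Il6 held an NF-κB match, and Slc7a11, a cystine transporter, held a pair of ATF4 elements facing one another. Over all tested genes with an entry, 3.82% had an ISRE match, 8.5% a GAS match, 2.13% an NF-κB match and 2.82% an ATF4 element. Among the 1081 genes higher beyond 2-fold these shares were 9.99%, 10.9%, 4.44% and 4.53%. Among the 244 genes higher by over 16-fold they were 20.1%, 15.6%, 9.84% and 4.92%. The 1149 genes lower beyond 2-fold had 3.31%, 6.79%, 1.83% and 3.13%, close to all tested genes for ISRE and NF-κB. A match describes letters in this window and is not a measured binding site.

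**Figure D3:**
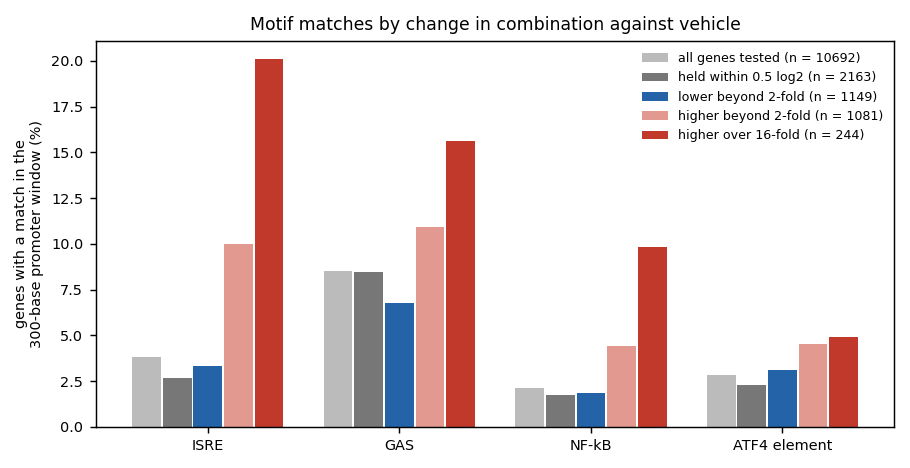
Share of genes with at least 1 match of each motif in the 300-base promoter window (vertical, percent), for all tested genes and for genes grouped by their change in the combination against vehicle. For ISRE the bar is 20.1% in genes higher by over 16-fold and 3.82% in all tested genes.

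Receptors for the cytokines changed in both directions. Il1r1, the signalling receptor of interleukin-1, went from 664, 648 and 654 CPM to 188, 175 and 153 CPM (log2 fold change -1.93, SE 0.069, adjusted p = 1.1e-13). The combination libraries thus all lay far below vehicle. Of 20 cytokine receptor genes, 14 rose and 3 fell (median 1.02, where the median of all genes was -0.009). The interferon-γ receptor chains Ifngr1 (1.05) and Ifngr2 (2.16) rose, as did Il13ra1 (2.03). Of 20 JAK, STAT and SOCS genes 13 rose and 5 fell (median 0.63). Stat2, a transcription factor of the interferon response, went from 12.5, 12.6 and 14 CPM to 173, 157 and 162 CPM (3.65, SE 0.085, adjusted p = 3.8e-16). Every combination library lay far above vehicle. The kinase gene Jak2 rose by 1.82. The feedback inhibitors diverged, with Socs1 at 5.52 and Socs3 at 0.76 while Socs2 fell by 2.39, and the prolactin receptor gene Prlr fell by 3.27.

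All 8 interferon regulatory factor genes measured rose (median 2.24), among them Irf1 (4.22), Irf7 (5.46) and Irf9 (3.25). The smallest of these rises, Irf3 (0.33, adjusted p = 0.03), was lost in 3 of 21 alternative fits. Of 24 NF-κB subunit and regulator genes 19 rose and 0 fell (median 2.08). Nfkbia, the inhibitor that NF-κB itself induces, rose by 3.09, Tnip1 by 2.95 and the antiapoptotic Birc3 by 3.47. The kinase gene Ikbkb was not called (34.8, 35.6 and 34.5 CPM with vehicle, 31.6, 31 and 32.7 with the combination). Il6 went from 0.509, 0.888 and 0.322 CPM to 55.5, 50.1 and 55.1 CPM (6.54, SE 0.25, adjusted p = 1.1e-10).

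Defence and antigen presentation genes rose almost without exception, above the share of 36.2% of all genes that rose. All 19 guanylate-binding proteins and immunity-related GTPases, which act against intracellular microbes, rose beyond 2-fold (median 7.48). Gbp2 went from 9.8, 8.74 and 9.39 CPM to 2180, 2130 and 2260 CPM (7.88, SE 0.11, adjusted p = 5.4e-19). Of 29 antiviral interferon-stimulated genes 28 rose, 26 of them beyond 2-fold (median 4.75), with Xaf1 at 6.14, Rsad2 at 5.80 and Oasl2 at 4.91. The exception was Eif2ak2, a kinase that senses double-stranded RNA (0.31, edgeR adjusted p = 0.071, called in 4 of 21 alternative fits). Of 21 MHC class I presentation genes 20 rose (median 3.14). B2m (chromosome 2, 122147686 to 122153083) went from 156, 140 and 137 CPM to 3100, 3040 and 2750 CPM (4.36, SE 0.081, adjusted p = 2.1e-17). The peptide transporter Tap1 (5.35), the immunoproteasome subunit Psmb8 (4.73) and Tapbpl (3.14) rose with it, while the exception, the chaperone Pdia3, was held at 1330, 1270 and 1340 CPM against 1310, 1210 and 1450. All 7 MHC class II genes rose (median 3.17). Their activator Ciita went from 7 counts over the vehicle libraries to 626 over the combination libraries, and Cd74 rose by 4.10.

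Signals to immune cells and to the islet's own death machinery were also higher. Of 22 chemokine genes 17 rose and 3 fell (median 4.55), the lowest being Cxcl12 (-1.01). Of 16 checkpoint and adhesion ligands 14 rose (median 3.11). Cd274 (chromosome 19, 29367455 to 29388095), which encodes the T-cell inhibitory ligand PD-L1, went from 18.5, 21.7 and 19.8 CPM to 1070, 1040 and 1040 CPM (5.72, SE 0.075, adjusted p = 5.4e-19). The adhesion molecule Icam1 (6.91) and the costimulatory receptor Cd40 (7.06) rose more. The checkpoint gene that fell, listed as 4632428N05Rik, went from 3.14, 2.85 and 2.58 CPM to 1.12, 0.707 and 0.829 CPM (-1.69). Of 31 death receptor and apoptosis genes 23 rose and 2 fell (median 1.09), including the death receptor Fas (5.75), Casp1 (5.02) and the necroptosis effector Mlkl (5.19). Bcl2, which restrains apoptosis, was at -0.93 (adjusted p = 0.011), and its call was lost without vehicle replicate 1 (0.05) and without combination replicate 1 (0.058).

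Nitric oxide and arginine genes did not move as a group: 6 of 17 rose and 8 fell (median -0.29). Nos2 was the highest, while Arg1, which consumes arginine, went from 33.1, 34 and 35.7 CPM to 0.929, 2.12 and 0.933 CPM (-4.66, SE 0.27, adjusted p = 1.5e-08). The arginine transporter Slc7a2 fell by 1.09.

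**Figure D4:**
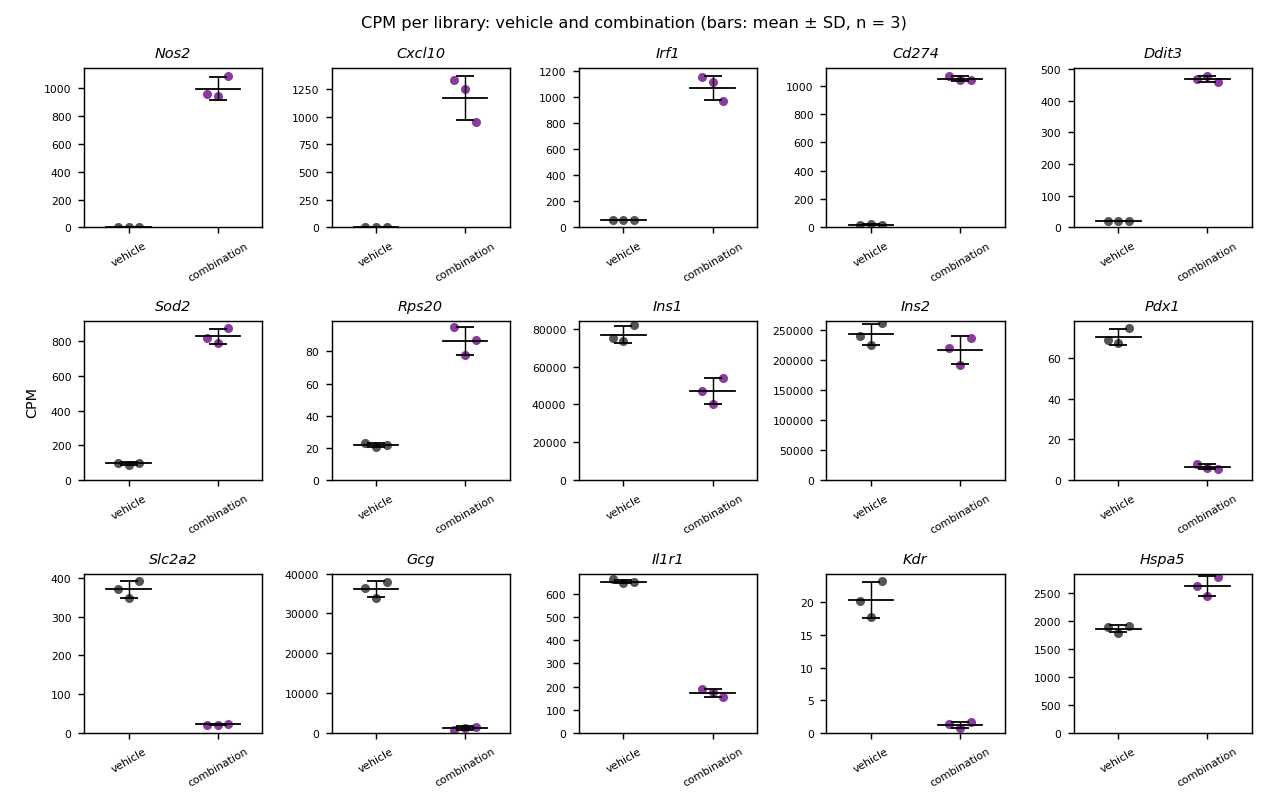
CPM (vertical, linear from 0) of 15 genes in the 3 vehicle and 3 combination libraries, with each point 1 library, the long bar the mean and the capped line ± 1 SD. The groups do not overlap for any of the genes shown except Ins2, whose vehicle libraries span 226000 to 262000 CPM and combination libraries 192000 to 237000 CPM.

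Of the insulin genes, Ins1 fell and Ins2 was not called, while several transcription factors that maintain β cells fell further than Ins1. Ins2 (chromosome 7, 142678656 to 142743381) measured 240000, 226000 and 262000 CPM with vehicle and 221000, 192000 and 237000 CPM with the combination. The groups overlapped, and the change of -0.16 had a 95% interval of -0.37 to 0.04 (edgeR adjusted p = 0.13). It passed the threshold in 2 of 21 alternative fits, such as without combination replicate 4 (-0.23, adjusted p = 0.04). Ins1 went from 75200, 73400 and 82100 CPM to 47000, 40400 and 53800 CPM, without overlap (-0.71, SE 0.1, adjusted p = 1e-05). Iapp, which encodes the amyloid peptide released with insulin, overlapped at 33500, 30000 and 31800 CPM against 30400, 25000 and 30700 (-0.15, adjusted p = 0.13, and 0.033 in 1 of the 21 fits). The coding sequences of both insulin genes are similar, so some reads may be shared.

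Of 39 β-cell identity genes 32 fell and 5 rose, with 23 falls beyond 2-fold (median -1.42), whereas 36.2% of all genes fell. Pdx1 (chromosome 5, 147269959 to 147275848), the master factor of β cells, went from 69.1, 67.5 and 74.9 CPM to 8.11, 6.05 and 5.55 CPM (-3.42, SE 0.11, adjusted p = 4.2e-14). Mafa, an activator of insulin transcription, went from 163, 156 and 177 CPM to 6.06, 7.82 and 6.22 CPM (-4.62, SE 0.13, adjusted p = 4.5e-13). Slc2a2, the glucose transporter GLUT2, went from 372, 348 and 393 CPM to 20.2, 20.7 and 23.2 CPM (-4.12, SE 0.11, adjusted p = 6.8e-14). In all of these genes the lowest vehicle library was several times above the highest combination library. Ucn3, a maturity peptide, fell by 4.80 and the transcription factor gene Nkx6-1 by 1.28. The largest rise in the list was of the prohormone-processing carboxypeptidase Cpe (0.71), at 3990, 3690 and 3990 CPM with vehicle and 6350, 6040 and 6630 CPM with the combination.

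Hormone genes of the other endocrine cells fell, except ghrelin. All 14 α-cell genes fell, 13 beyond 2-fold (median -4.29). Gcg (chromosome 2, 62474530 to 62483650), the glucagon gene, went from 36300, 33900 and 37900 CPM to 631, 1110 and 1550 CPM (-5.04, SE 0.42, adjusted p = 5.3e-06). Irx2, a transcription factor gene of α cells, fell by 4.21. All 7 δ-cell genes fell (median -2.33), with Sst at 1250, 1240 and 1290 CPM against 140, 172 and 112 CPM (-3.16, SE 0.18, adjusted p = 7.6e-08). Of 5 PP-cell genes 4 fell, with Pyy at -5.27 and Ppy at -3.53, and the exception was Aqp3, which had 8 counts with vehicle and 49 with the combination. Ppy spread widely in the combination, at 750, 1130 and 239 CPM. Ghrl, the ghrelin gene, measured 3.01, 6.03 and 6.03 CPM against 11.1, 12.6 and 5.65 CPM and was not called (0.97, adjusted p = 0.16).

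Among the genes that fell furthest were other receptors and secreted factors. They were chosen by size among called genes with no overlap between groups and an average log2 CPM of at least 3. Genes that this rule leaves out, such as Neurog3 (-6.85) and Emcn (-6.03), fell further than some of them. Sfrp5 (chromosome 19, 42197971 to 42202252), a secreted antagonist of Wnt signalling, went from 61.9, 59 and 68.5 CPM to 0.195, 0.486 and 0.518 CPM (-7.28, SE 0.23, adjusted p = 9.8e-13). The others were Edn3 (-6.63), an endothelin, Kctd12b (-6.52), the oxytocin receptor Oxtr (-6.37), the matrix linker Hapln1 (-5.94), the FGF co-receptor Klb (-4.96), the cytochrome Cyp1a1 (-4.93) and the matrix protein Mgp (-4.82).

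Progenitor and dedifferentiation genes split: 9 of 18 rose and 6 fell (median 0.47). The endocrine progenitor factor Neurog3 went from 290 counts over the vehicle libraries to 2 over the combination libraries, a level 0.737% of vehicle (95% Poisson interval, for counting error alone, 0.0893% to 2.66%). Aldh1a3, a marker of dedifferentiated β cells, fell by 1.32. The genes that rose included the lactate transporter Slc16a1 (3.07) and the hexokinase Hk2 (4.10), which mature β cells normally keep low.

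The machinery of secretion fell unevenly. Of 25 exocytosis genes 14 fell and 9 rose (median -0.23). Cplx2 (-3.08), Sytl4 (-2.32) and Rab3a (-2.17) fell. Of 28 ion channels of excitability 22 fell and 2 rose (median -1.10), led by the potassium channel Kcnk16, which went from 122, 114 and 132 CPM to 4.4, 4.06 and 5.65 CPM (-4.71, SE 0.11, adjusted p = 2.7e-16). The calcium channel gene Cacna1c was the largest rise (1.17).

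Oxidative stress genes were divided between strong rises and unchanged or falling members. Sod2 (chromosome 17, 13006846 to 13040063), the mitochondrial superoxide dismutase, went from 98.6, 88.5 and 101 CPM to 817, 788 and 878 CPM (3.11, SE 0.067, adjusted p = 1.5e-16). Among 31 genes of antioxidant enzymes, rises numbered 17 and falls 7 (median 0.37), including Gpx1 (2.02), Cat (1.60) and Gsr (1.24). Gpx3, a secreted glutathione peroxidase, went from 719, 695 and 708 CPM to 44.5, 72.7 and 66.1 CPM (-3.53, SE 0.25, adjusted p = 1.5e-06). Of 28 NRF2 targets 19 rose and 5 fell (median 1.10). Hmox1, heme oxygenase, went from 61.5, 67 and 49.4 CPM to 924, 949 and 843 CPM (3.93, SE 0.11, adjusted p = 8.3e-13), and the ferritin genes Fth1 (2.17) and Ftl1 (1.71) rose. Nqo1, another NRF2 target, was not called (26.6, 26.1 and 27.4 CPM against 30.1, 42.3 and 23 CPM), except in 1 of 21 alternative fits. Of 10 NADPH oxidase genes 6 rose and 0 fell (median 0.76), with Cybb at 2.10 and Cyba at 2.02. Duoxa2 was at 7.91 but with an adjusted p of only 0.019, and its call was lost in 4 of 21 alternative fits, the leave-outs of vehicle replicate 1 (adjusted p = 0.056), 2 (0.059) and 4 (0.059) and the fit with the acinar level as a covariate (0.1).

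Eicosanoid enzymes, the class to which the target of ML351 belongs, rose in 12 of 23 and fell in 5 (median 0.66). The highest member was the lipoxygenase gene Alox12, which went from 0.594, 0.28 and 0.23 CPM to 11.8, 9.49 and 13.1 CPM (4.92, SE 0.25, adjusted p = 1.1e-11), and the lowest was Alox5ap (-2.27). Ptgs2, cyclooxygenase 2, was at 2.42, 2.24 and 1.2 CPM against 32.4, 97.8 and 33.2 CPM, with replicate 2 well above the others (4.80, SE 0.59, adjusted p = 8.1e-05). The phospholipase Pla2g16 rose by 1.89 and Pla2g6 fell by 1.68.

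Stress and translation genes rose together. Ddit3, which encodes the stress factor CHOP, went from 19, 20.1 and 19 CPM to 470, 479 and 459 CPM (4.60, SE 0.074, adjusted p = 4.1e-18). Of 30 integrated stress response genes 20 rose and 3 fell (median 1.00), with Trib3 at 3.14, Ppp1r15a at 3.19 and Atf4 at 1.07. Slc7a11, whose promoter is shown above, rose by 3.83. Of 20 aminoacyl-tRNA synthetase genes 17 rose (median 0.61), with Yars at 1.31 and Sars at 1.24. Of 49 cytosolic ribosomal protein genes 47 rose, 2 beyond 2-fold (median 0.81), a narrow shift shared by nearly all of them. Rps20 had the largest, from 23.2, 20.4 and 21.8 CPM to 94.9, 77.7 and 87.3 CPM (1.99, SE 0.086, adjusted p = 1.4e-12). Of 20 heat shock genes 17 rose (median 1.10), including Hspa8 (2.85) and Hsp90ab1 (2.12).

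The ER folding machinery did not rise as a list. Of 33 ER chaperone and unfolded protein response genes 16 fell and 10 rose (median -0.17), and 13 were held within 0.5 log2. Ero1lb, an oxidase that serves proinsulin folding, went from 1440, 1370 and 1540 CPM to 295, 303 and 327 CPM (-2.23, SE 0.071, adjusted p = 2.3e-14), while Edem1 rose by 1.34 and the calcium pump Atp2a2 fell by 1.20. Hspa5, the chaperone BiP, rose by 0.50. Among the most abundant genes held within 0.5 log2 were the ER isomerase P4hb (0.21, adjusted p = 0.02, a call lost in 3 of 21 alternative fits), the lysosomal protein gene Psap (0.30, adjusted p = 0.0061) and the mitochondrial leucyl-tRNA synthetase gene Lars2 (-0.03, adjusted p = 0.72), beside Ins2, Iapp and Pdia3. In all 6 the vehicle and combination libraries overlapped.

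Transcripts of energy metabolism changed unevenly among pathways. Of 22 glycolysis genes 17 rose and 3 fell (median 0.96), with Pfkfb3 at 4.13. Oxidative phosphorylation genes moved little: 23 of 40 rose and 6 fell, but 20 were held within 0.5 log2 and only Ndufa4 changed beyond 2-fold (-1.42; median of the list 0.28). Of 27 citric acid cycle and pyruvate entry genes 11 rose, 11 fell and 15 were held (median 0.10), with Pcx (-2.01) and Fh1 (-2.01) among the falls. Cholesterol synthesis genes fell in 14 and rose in 4 of 24 (median -0.56), with Insig1 at -1.06, although Fdps rose by 1.29. Fatty acid genes fell in 12 and rose in 11 of 29 (median 0.00), with Acly at -1.76, Pdk4 at -4.57 and the lipid droplet gene Plin2 at 2.53. Amino acid transporters were balanced, with 9 of 24 higher and 9 lower (median 0.13), and Slc3a2 at 1.57 stood against Slc7a8 at -2.59. Of 35 cell cycle genes 26 fell and 2 rose (median -0.94), with E2f1 at -2.58, while Cdk6 rose by 3.18. Of 20 p53 targets 16 rose and 3 fell (median 1.18), with Gadd45b at 4.45, Mdm2 at 1.53 and Ccng1 at 1.53. The circadian clock list was balanced (7 rose and 8 fell of 19, median 0.01), with Nr1d1 at 1.78 and Per3 at -1.68.

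Markers of other cells in the preparation moved too. All 13 endothelial markers fell beyond 2-fold (median -2.79), and their summed level was 124 to 134 CPM with vehicle and 19.3 to 23.6 CPM with the combination. Kdr (chromosome 5, 75932827 to 75978458), a VEGF receptor, went from 20.2, 17.8 and 23.3 CPM to 1.32, 0.707 and 1.66 CPM (-4.07, SE 0.2, adjusted p = 7.2e-12), and Vwf, with 124 counts with vehicle and 3 with the combination, was at 0 in combination replicate 4. Stellate and fibroblast markers fell in 11 and rose in 1 of 19 (median -1.82), with sums of 246 to 583 and 56.2 to 221 CPM, the highest combination value being in replicate 2. Of 18 macrophage markers 8 rose and 3 fell (median 0.32), with sums of 250 to 252 and 353 to 382 CPM. Cd68, a lysosomal macrophage marker, rose by 2.83 whereas Lyz2 fell by 0.64. Of 16 ductal markers 11 rose and 5 fell (median 1.78; sums of 1310 to 1510 and 4240 to 4410 CPM), among them the simple epithelial keratins Krt8 (3.05) and Krt18 (2.26). The lymphocyte list had 2 tested of 16 members and its sum was 6.12 to 6.63 CPM with vehicle and 14 to 17.5 with the combination. Schwann cell markers fell in 4 and rose in 2 of 10 (median -0.94; sums of 137 to 168 and 111 to 127 CPM).

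Of 23 acinar markers 3 were called higher and 1 lower, with a list median of 1.64. The groups did not overlap for 20 members, where 75.8% of all genes did not overlap. Ctrl (2.39, adjusted p = 0.035) and Spink1 (2.71, adjusted p = 0.042), which encode secreted products of the exocrine pancreas, were called, as was Gp2, picked after its value was seen (2.26, adjusted p = 0.044). These calls were lost in 8, 9 and 11 of 21 alternative fits. Bhlha15, a transcription factor of secretory cells, fell by 2.71. With the acinar level as a covariate 9368 of the 10209 calls were kept. The summed acinar level did not overlap between vehicle and the combination, so that fit cannot separate it from the treatment. The part of the acinar level in other genes' changes was therefore not tested.

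Whether the combination state differs from the state with cytokines alone was tested in the same edgeR model, sharing the combination libraries with the comparison above. Of 14089 genes 202 (1.43%) were called, 91 higher (0.646%) and 111 lower (0.788%), and 2212 genes had an unadjusted p under 0.05. The count of genes called in the combination against cytokines was unstable: with the acinar level as a covariate it was 7, and with DESeq2 it was 527. It was 54 without cytokine replicate 4, 74 without cytokine replicate 1 or 3, 80 without combination replicate 2, and 90, 114 and 125 without vehicle replicates 1, 2 and 4. Over all 12 leave-outs it ran from 54 to 236. Summed acinar levels were 1160 to 1700 CPM with the combination and 54.5 to 991 CPM with cytokines, without overlap. The covariate therefore cannot separate the acinar level from the treatment, and the part of that level in these differences was not tested.

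Cyp1a1 (chromosome 9, 57687928 to 57703824), an oxidising enzyme induced by the aryl hydrocarbon receptor, fell furthest of the genes lower than with cytokines that the naming rule took. It measured 21.1, 22 and 28.6 CPM with vehicle and 0.293, 1.59 and 0.363 CPM with the combination. Levels in the ML351 libraries were 6.97, 11.8 and 7.87 CPM, and those in the cytokine libraries 10.1, 13 and 18.7 CPM. The combination libraries lay below every other library (against vehicle -4.93, SE 0.5, edgeR adjusted p = 1.4e-05; against cytokines -4.15, SE 0.51, adjusted p = 0.012, and 0.052 with the acinar covariate). Of 11 aryl hydrocarbon receptor targets 6 rose and 3 fell against vehicle (median 0.65). Tiparp, a repressor of that receptor, rose by 1.00 against vehicle and the partner gene Arnt by 0.94. Against cytokines the list's median was -0.11, and Cyp1a1 was the 1 member called lower. The list's summed level, Cyp1a1 included, was 497 to 550 CPM with the combination and 576 to 602 CPM with cytokines. It was 377 to 405 CPM with ML351 and 443 to 452 CPM with vehicle. Whether the receptor's activity changed was not tested.

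Immediate early genes, which respond to stimuli within minutes, rose in 16 of 20 and fell in 2 against vehicle (median 1.28), with Atf3 at 4.92, Klf6 at 2.75, Dusp1 at 2.23 and Zfp36 at 1.53. Of the same 20 genes 3 were higher than with cytokines. Nr4a1 (chromosome 15, 101254269 to 101274795), an orphan nuclear receptor, measured 6.79, 7.57 and 4.7 CPM with vehicle, 5.2, 4.66 and 3.12 with cytokines and 14.9, 13.1 and 11.1 in the combination libraries. It was above both groups in every library (against vehicle 1.04, adjusted p = 0.0088; against cytokines 1.58, adjusted p = 0.04). Nr4a2 was below vehicle (-1.63) but above cytokines (0.91, adjusted p = 0.048), and the third was the growth inhibitor Btg2 (-0.44 against vehicle; 0.38 and adjusted p = 0.022 against cytokines). The calls against cytokines of Nr4a1, Nr4a2 and Btg2 were lost in 9, 11 and 6 of 19 alternative fits. Npas4, an activity-dependent factor named after its value was seen, had 3 counts in the vehicle libraries and 182 in the combination libraries. Its vehicle level was 1.54% of that with the combination (95% Poisson interval, for counting error alone, 0.318% to 4.51%), and the cytokine libraries held 0.161, 0.147 and 0 CPM (against cytokines 4.70, adjusted p = 0.0097, and 0.098 with the acinar covariate).

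Some endothelial and macrophage markers were lower in the combination than with cytokines. Of 13 endothelial markers 5 were lower than with cytokines (median -0.69). Plvap, a diaphragm protein of fenestrated capillaries, measured 14.9, 17.1 and 19.8 CPM with vehicle, 1.94, 2.11 and 3.02 with cytokines and 1.27, 0.883 and 1.14 in the combination libraries (against cytokines -1.09, adjusted p = 0.027). Kdr (-0.95, adjusted p = 0.05, under the threshold before rounding) and Eng (-0.66) were lower too, calls lost in 13 and 4 of 19 alternative fits. Of 18 macrophage markers 3 were lower than with cytokines (median -0.29), among them Clec7a at 14.6, 12.3 and 14.7 CPM with vehicle, 25.3, 25.3 and 24.1 with cytokines and 15.7, 15.2 and 17.4 in the combination libraries. Against vehicle Clec7a was not called (0.21, edgeR adjusted p = 0.06), although the groups did not overlap and 2 of 21 alternative fits called it. Its combination libraries were below cytokines (-0.63, adjusted p = 0.0087). Clec7a was also lower in the ML351 libraries than with vehicle, at 8.2, 9.11 and 8.9 CPM (-0.67, adjusted p = 0.042; interaction 0.03, adjusted p = 0.97). Blnk, a B-cell and myeloid adaptor, stayed well above vehicle (3.31) while lower than with cytokines (-0.66, adjusted p = 0.013). Cda, cytidine deaminase, was below both (-0.38 against vehicle; -0.73 against cytokines, adjusted p = 0.0028, and 0.016 with the acinar covariate). It was the 1 gene of the 16 taken by the naming rule for this comparison whose call held with that covariate.

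**Figure D5:**
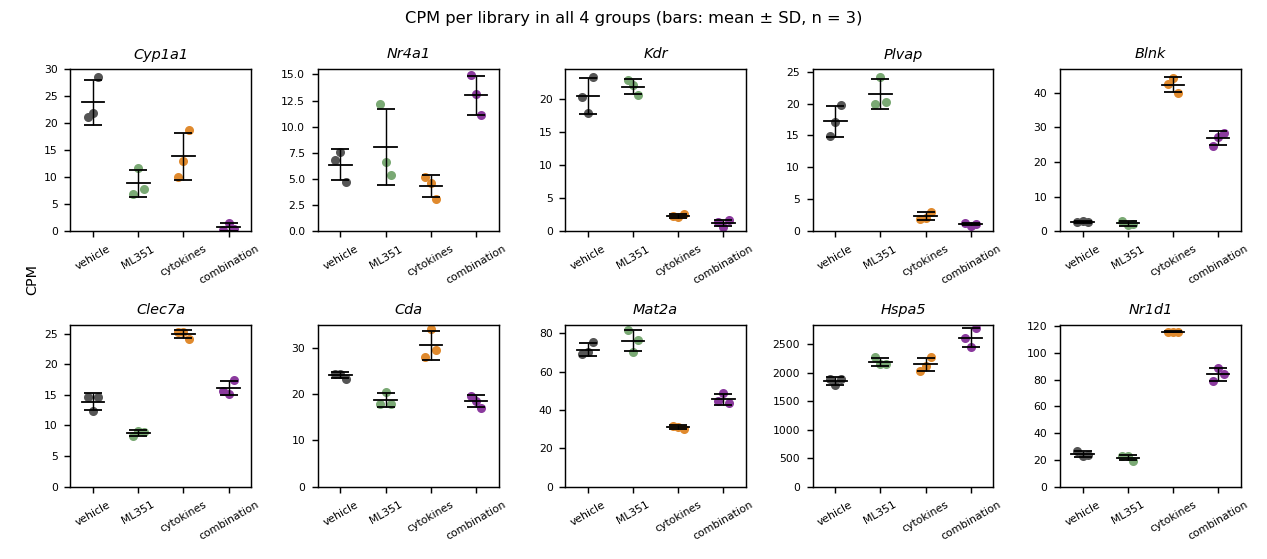
CPM (vertical, linear from 0) of 10 genes in all 4 groups, with each point 1 library, the long bar the mean and the capped line ± 1 SD. Cyp1a1 is lowest in the combination (0.293 to 1.59 CPM), Nr4a1 highest (11.1 to 14.9 CPM), and Clec7a lies between its ML351 and cytokine levels (15.2 to 17.4 CPM).

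A few more genes called against cytokines, chosen after their values were seen, were Mat2a (0.56), Stk38l (0.56), Pabpc1 (-0.33), Mapk3 (-0.33) and Xpo1 (0.36). Mat2a, which makes the methyl donor S-adenosylmethionine, measured 69.1, 70.5 and 75.3 CPM with vehicle, 31.9, 31.1 and 29.9 with cytokines and 44.7, 49 and 43.5 in the combination libraries, between the other groups. Mapk3, the kinase ERK1, measured 140, 142 and 145 CPM with vehicle, 187, 186 and 189 with cytokines and 146, 153 and 149 in the combination libraries. Xpo1, the nuclear export receptor, measured 56.1, 54.1 and 53.7 CPM with vehicle, 47.6, 45.1 and 44 with cytokines and 57.8, 57.1 and 60.5 in the combination libraries. Neither was called against vehicle (adjusted p = 0.27 and 0.14). In the ML351 libraries Mapk3 was at 111, 126 and 119 CPM and Xpo1 at 70.2, 68.5 and 70 CPM, and Xpo1 was called higher there than with vehicle (0.35, adjusted p = 0.042). Stk38l, in contrast, lay further from vehicle than the cytokine libraries did, at 32.9, 31.3 and 33.4 CPM with vehicle, 58.9, 58.1 and 56.3 with cytokines and 77.6, 86.2 and 92.8 in the combination libraries. The BiP gene Hspa5 also lay above both, at 2620, 2450 and 2790 CPM with the combination against 2040, 2120 and 2270 with cytokines (0.29, adjusted p = 0.031). With the acinar covariate the calls of Mat2a (adjusted p = 0.022), Stk38l (0.022) and Pabpc1 (0.024) held, while those of Mapk3 (0.067), Xpo1 (0.052) and Hspa5 (0.19) were lost. Several genes with large changes against vehicle were not called against cytokines. The difference was -0.30 for Nos2 (95% interval -0.48 to -0.12, adjusted p = 0.1), 0.07 for Cxcl10 (-0.26 to 0.41, adjusted p = 0.87), -0.07 for Pdx1 (-0.34 to 0.2, adjusted p = 0.85) and 0.31 for Gcg (-0.51 to 1.13, adjusted p = 0.74).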

How the data were processed

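RNA was measured in 12 libraries of mouse islets, 3 in each of 4 groups taken from the labelled treatment. The authors deposited raw counts, 1 whole number for each gene symbol and library, per the file headers. FastQC, STAR, featureCounts, Subread and DESeq2 and the build mm10 are listed in the submitters' processing notes, without versions, and the sources used here give neither the annotation nor any earlier filter. Per the labels, the library kit does not record the strand, so reads of overlapping or antisense genes cannot be told apart.

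The counts were fitted with the quasi-likelihood test of edgeR 4.0.16 (R 4.3.3, limma 3.58.1), with TMM scaling, filterByExpr (all 14089 genes passed) and all 12 libraries in one model. P-values were adjusted over all genes by the Benjamini-Hochberg method, with a threshold of 0.05. Changes beyond 2-fold were tested with glmTreat at a log2 size of 1. The scripts were tested on simulated data. No pair of libraries in a group matched within sampling noise.

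Genes were named by a rule: among called genes whose groups did not overlap and whose average log2 CPM reached 3, the 12 largest rises and 12 largest falls, and 8 each way against cytokines. To these were added up to 3 members with the smallest p of each of 46 lists and the called member with the largest opposite change, a fixed panel of islet genes, the 6 most abundant held genes and called interaction genes. Unnamed gene models, pseudogenes, Xist and Y-linked genes were passed over, and the lowest and highest list members were added after values were seen. Some genes that the rule takes are not reported here. Members and lists were chosen with earlier results of these data known. Of 1058 list members 986 were tested. Coordinates are from GENCODE M21 (GRCm38), in which 13589 symbols were found, and promoters are from RefSeq. Alternatives covered scaling, DESeq2 1.42.0, filters, each library left out, a replicate block, an acinar covariate and the 6 libraries alone.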

Additional observations from a re-analysis of the deposited data

Results flagged for a closer look

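Ankrd10 (chromosome 8, 11611583 to 11635757, GRCm38) was the 1 gene of 14089 whose response to cytokines differed with and without ML351 in edgeR's test of that difference (interaction 0.62 on the log2 scale, SE 0.089, adjusted p = 0.03), where 1160 genes had an unadjusted p under 0.05. It measured 84.2, 80.5 and 88.9 CPM with vehicle and 68.3, 68.7 and 71.4 CPM with ML351. With cytokines it measured 30.5, 29.6 and 31.9 CPM and with the combination 40.2, 39.5 and 36.7 CPM, so the groups did not overlap. Against vehicle the combination was at -1.12 (SE 0.063, adjusted p = 4.2e-11). The call was lost in most of the alternative fits given in the next section.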

How the results depend on the processing

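The combination against vehicle gave 9499 to 10247 called genes over 21 alternatives, within 1.5 times of 10209. No named gene that was called in the main fit changed direction, and direction was not followed for the others. Of 268 named genes 18 changed their call in at least 1 fit. For the combination against cytokines (202 genes, 91 higher and 111 lower) DESeq2 called 527 (174 higher, 353 lower), and the fit with the acinar level as a covariate called 7 (2 higher, 5 lower). A replicate block called 53 (19 higher, 34 lower). Leaving out 1 library gave 54 to 236 genes, 23 to 95 higher and 29 to 141 lower. The 1 interaction call became 0 with the replicate block and with the acinar covariate, and was 0 to 1 with 1 library left out. The cause of these moves was not tested. The fits with 1 library left out also had fewer libraries. Same-numbered vehicle and combination libraries correlated at -0.031, 0.191 and 0.034 in their deviations, so the numbers were not taken to pair the samples. Scaling choices moved the median of all genes by 0.008 on the log2 scale. Each of these scalings places the typical gene near no change, so their agreement cannot test for a shift shared by all genes. Depth limits genes with few counts, such as Neurog3 and Ly6i.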

Other observations

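Genes of long noncoding types in GENCODE M21 leaned lower in the combination. These types include processed transcripts, among them Cct6a, the gene of a chaperonin subunit, so the set is not purely noncoding. Of 396 genes of these types, 76 were called higher and 162 lower (60.1% called, median log2 fold change -0.41). Of 13078 genes typed as protein-coding, 4817 were higher and 4721 lower (72.9%, median 0). The median abundance of the 396 genes was lower, at 0.69 average log2 CPM against 4.18, and without strand some of their reads may belong to overlapping genes. The genes named here were chosen after their values were seen. Neat1, the RNA scaffold of nuclear paraspeckles, measured 5.77, 4.2 and 6.91 CPM with vehicle and 19.7, 22 and 18.5 CPM with the combination (1.83, SE 0.3, edgeR adjusted p = 0.00028). Malat1, another abundant nuclear RNA, went from 59.4, 52.4 and 62.9 CPM to 115, 109 and 125 CPM (1.00, adjusted p = 2.5e-06), and Gas5, a host of small nucleolar RNAs, rose by 1.47.

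Of the noncoding RNAs that fell, 2 were picked after their values were seen. Peg13 went from 120, 122 and 128 CPM to 30, 30 and 28.7 CPM (-2.06, SE 0.076, adjusted p = 1.6e-13), and Rian from 23.9, 16.1 and 24.8 CPM to 8.85, 4.37 and 6.95 CPM (-1.69, SE 0.24, adjusted p = 5.1e-05). In both, every combination library lay below every vehicle library. Dbpht2 fell by 3.18 against vehicle and was higher than with cytokines (0.94, adjusted p = 0.027).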
